A study of Mus musculus with 2 samples.

Results

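The 10 genes described here belong to serine and one-carbon metabolism, amino acid uptake, polyamine synthesis and Myc-driven growth in natural killer (NK) cells from mouse tumors. They were taken by name from the 27998 gene symbols of both count tables: Psat1, Phgdh, Shmt1, Shmt2, Mthfd2, Slc7a5, Slc3a2, Srm, Odc1 and Myc. Mice had received RMA-S cells, lymphoma cells that carry little MHC class I, under the skin, and tumors were taken 2 weeks later. The KO library came from mice with Hif1a knocked out in NK cells, and the WT library from wild-type mice; both held cells sorted for NK1.1 and against CD3ε. The labels do not name the Cre driver, the strain, age or number of the mice, nor say whether animals were pooled. Each genotype had 1 library, so no difference between libraries has a replicate check, no p-value is given, and every ratio describes these libraries rather than the genotypes.

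Serine is made from a glycolytic intermediate in a short chain that Phgdh opens and Psat1 continues. The serine hydroxymethyltransferases Shmt1, in the cytosol, and Shmt2, in mitochondria, pass a carbon of serine to folate, and Mthfd2 oxidizes that folate in mitochondria; the carbon serves nucleotide synthesis. Slc7a5 carries large neutral amino acids into the cell and needs Slc3a2, the CD98 heavy chain, to reach the surface. Odc1 opens polyamine synthesis and Srm makes spermidine. Myc is the transcription factor under which many of these genes are placed in activated lymphocytes, and the uptake of amino acids through Slc7a5 is known to sustain Myc protein in NK cells.

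Cells needed 500 detected genes and no more than 10% mitochondrial UMIs, which left 3067 KO and 3555 WT cells with a median of 3793 and 4440 UMIs per cell. A UMI, or unique molecular identifier, counts 1 captured transcript end. Hif1a stood at 60.5 counts per 1000000 UMIs (CPM) in KO and 58.2 CPM in WT cells; its 3′ tags can lie outside the deleted part, so this checks nothing. The 12 NK markers were all present and summed to 24397 and 23676 CPM. Markers of other cells differed between libraries. T cell markers summed to 90.3 CPM in KO and 155 CPM in WT cells, with 7 and 6 of the 8 in the table present (Cd8b1 at 0 in the KO, Cd4 and Cd8a at 0 in the WT). Erythroid markers, with 5 of 5 present, summed to 296 and 858 CPM. Basophil and mast cell markers summed to 2.80 and 18.0 CPM, with Fcer1a, Ms4a2 and Gata2 at 0. The libraries had 19 barcodes in common, and the member values without them are covered in the closing section.

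Serine synthesis genes were lower in the KO library. Psat1 (chromosome 19, 15904678 to 15947337, minus strand, GRCm38, as are the positions that follow) had 162 UMIs in KO and 473 in WT cells, or 12.3 and 24.3 CPM. On the log2 scale, after adding 1 CPM to both levels, KO over WT was -0.93 (95% counting interval -1.25 to -0.73). Phgdh (chromosome 3, 98313170 to 98339990, minus strand) stood at 43.2 and 65.6 CPM, a log2 ratio of -0.59 (-0.75 to -0.46). These UMIs were spread over many cells, 141 KO and 359 WT cells for Psat1 and 418 and 685 for Phgdh, and the 10 richest cells held 14.8% and 12.1% of the Psat1 UMIs. Such intervals hold the error of counting UMIs alone and treat each UMI as a separate draw, which understates the error of genes whose UMIs sit in a handful of cells.

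The folate-linked enzymes went the same way by less. Shmt2 (chromosome 10, 127517123 to 127522444, minus strand) stood at 27.5 CPM in KO and 38.6 CPM in WT cells, a log2 ratio of -0.47 (-0.67 to -0.31). Mthfd2 (chromosome 6, 83305691 to 83325908, minus strand) stood at 18.8 and 27.1 CPM, at -0.50 (-0.75 to -0.30). Shmt1 (chromosome 11, 60788104 to 60811718, minus strand), the cytosolic enzyme, was sparse, with 26 UMIs in 20 KO cells and 78 UMIs in 60 WT cells. Its ratio was -0.76 (-1.73 to -0.37), and 10 cells held 61.5% of the KO UMIs.

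The subunits of the amino acid carrier parted in summed CPM. Slc7a5 (chromosome 8, 121881150 to 121907694, minus strand) stood at 12.9 CPM in KO and 18.5 CPM in WT cells, a log2 ratio of -0.50 (-0.80 to -0.26). Its partner Slc3a2 (chromosome 19, 8706882 to 8723369, minus strand) stood at 420 and 335 CPM, at 0.32 (0.27 to 0.38). Slc3a2 UMIs were found in 2172 KO and 2568 WT cells, and those of Slc7a5 in 135 and 250.

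The polyamine enzymes parted as well, and Myc was higher in the KO library. Odc1 (chromosome 12, 17544794 to 17551505, plus strand) stood at 128 CPM in KO and 95 CPM in WT cells, a log2 ratio of 0.43 (0.34 to 0.53). Srm (chromosome 4, 148591503 to 148594993, plus strand) stood at 20.9 and 29.9 CPM, at -0.50 (-0.73 to -0.31). Myc (chromosome 15, 61985391 to 61990374, plus strand) had 775 and 722 UMIs, or 58.6 and 37.1 CPM, at 0.65 (0.51 to 0.81). Thus 3 genes of the 10 were higher in the KO library and 7 lower, with no counting interval across 0. By 1.5-fold or more, Myc alone was higher, where 5.46% of 8155 genes with at least 200 UMIs were, and Psat1, Phgdh and Shmt1 were lower, where 2.50% were. The median log2 ratio was -0.50 over the 10 genes and 0.044 over all genes tested.

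**Figure D1:**
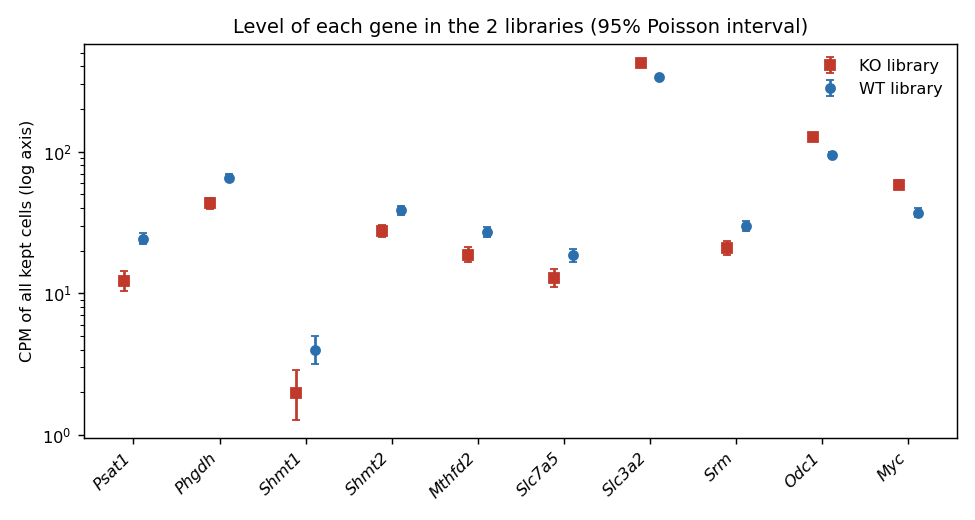
CPM of each gene in all kept cells of the KO library (squares) and the WT library (circles) on a log axis, with 95% Poisson intervals of the UMI sum. Slc3a2, Odc1 and Myc lie higher in the KO library, at 420, 128 and 58.6 CPM, and the other 7 genes lie lower.

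The ratios were also taken over an NK gate. It kept the 2734 KO and 2816 WT cells with a UMI of Ncr1, Klrb1c or Klrk1 and none of Cd3d, Cd3e or Cd3g. In it Psat1 stood at a log2 ratio of -0.92, Myc at 0.67, Odc1 at 0.47 and Slc3a2 at 0.27, close to the values over all kept cells. The other lower members had smaller ratios than over all kept cells. Slc7a5 had -0.30 (-0.64 to -0.0027), Shmt2 -0.33, Mthfd2 -0.37 and Srm -0.40. The median over the 10 genes was -0.34, against -0.50 over all kept cells. Myc was again the only member at least 1.5-fold higher, where 5.21% of 7564 genes were, and Psat1 the only one as much lower, where 1.76% were. Phgdh, at -0.35, and Shmt1, at -0.57, were no longer so. The gate removed deeper cells, with a median of 5582 UMIs against 4281 inside it in the WT library. Cells outside the gate held more Phgdh, at 58.3 against 40.8 CPM in KO and 99.8 against 52.4 CPM in WT cells. Psat1 stood at 24.8 against 10.3 CPM in KO and at 34.6 against 20.3 CPM in WT cells. Slc3a2 and Myc leaned the other way in both libraries. The part of the removed cells in the ratios was not tested.

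The same genes were then compared between cycling and non-cycling cells. A cell was called cycling when at least 3 of 30 S and G2M genes, none of them among the 10, were detected after thinning it to 2500 UMIs. This left out 418 KO and 92 WT cells as too shallow. Cycling cells numbered 147 of 2649 KO cells, or 5.55% (4.71% to 6.49% by the exact binomial method), and 331 of 3463 WT cells, or 9.56% (8.60% to 10.6%). The class is a range of a score rather than a cell type, since 96 KO and 161 WT cells lay at the cut and 384 and 508 just below it. Cycling cells were deeper, with a median of 4902 UMIs against 4022 in KO and 7500 against 4418 in WT cells.

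The 5 serine and folate genes, Slc7a5 and Srm were higher in cycling cells in both libraries. Psat1 stood at 41.0 CPM in cycling and 9.91 CPM in non-cycling KO cells, and at 55.4 and 18.3 CPM in WT cells. The log2 ratios of cycling over non-cycling were 1.94 (1.51 to 2.56) and 1.54 (1.32 to 1.87). Phgdh stood at 97.8 and 38.5 CPM in KO cells and at 152 and 48.8 CPM in WT cells, ratios of 1.32 (1.02 to 1.66) and 1.62 (1.48 to 1.81). Cycling and non-cycling intervals of the CPM did not overlap for either gene in either library.

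Both mitochondrial folate enzymes and the cytosolic one shared this. Mthfd2 had log2 ratios of 1.41 in KO and 1.45 in WT cells, and Shmt2 had 1.09 and 0.97. Shmt1 had the largest ratio of the 10 in both libraries, 2.83 and 2.35, from 14 UMIs in cycling and 11 in non-cycling KO cells and from 46 and 32 in WT cells. Only 8 KO and 30 WT cycling cells carried a Shmt1 UMI. Srm, which makes spermidine, had 1.70 (1.32 to 2.16) and 1.19 (0.96 to 1.48). Slc7a5 stood at 24.2 against 11.8 CPM in KO cells and at 38.3 against 14.5 CPM in WT cells, ratios of 0.98 (0.37 to 1.66) and 1.34 (1.08 to 1.72).

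Slc3a2, Odc1 and Myc did not share it. Slc3a2 was lower in cycling cells, at 340 against 420 CPM in the KO and 274 against 346 CPM in the WT library, log2 ratios of -0.30 (-0.46 to -0.15) and -0.33 (-0.44 to -0.23). Odc1 stood at 140 against 130 CPM in KO cells, a ratio of 0.11 with an interval across 0, and at 131 against 87.7 CPM in WT cells, 0.58 (0.42 to 0.74). Myc stood at 38.2 against 61.4 CPM in KO cells, -0.67 (-1.18 to -0.23), and at 41.1 against 36.1 CPM in WT cells, 0.18 (-0.099 to 0.46). At 1.5-fold or more, 7 of the 10 genes were higher in cycling cells in each library, where 7.46% of 5700 KO and 10.1% of 6818 WT genes were. Myc in the KO library was the only member as much lower, where 7.91% of KO and 6.0% of WT genes were.

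**Figure D2:**
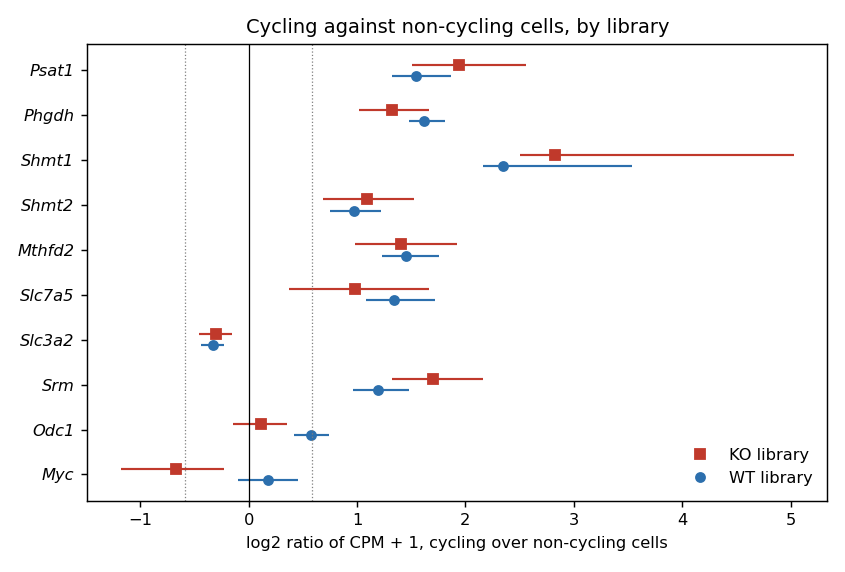
Log2 ratio of CPM + 1 in cycling over non-cycling cells for each gene in the KO library (squares) and the WT library (circles), with exact 95% counting intervals as lines and 1.5-fold as dotted lines. In both libraries 7 genes lie right of the upper dotted line, Slc3a2 lies left of 0, and Myc lies at -0.67 in KO and 0.18 in WT cells.

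For the serine and folate genes that were higher together in cycling cells, the 250 bases before the RefSeq start (GRCm38.p6) are shown for 3 members, 5′ to 3′ on the gene's strand, with the letters CCAAT or their reverse complement in capitals. They are chr19:15925060-15925309 for Psat1, chr3:98339970-98340219 for Phgdh and chr6:83317605-83317854 for Mthfd2, all on the minus strand.
Psat1: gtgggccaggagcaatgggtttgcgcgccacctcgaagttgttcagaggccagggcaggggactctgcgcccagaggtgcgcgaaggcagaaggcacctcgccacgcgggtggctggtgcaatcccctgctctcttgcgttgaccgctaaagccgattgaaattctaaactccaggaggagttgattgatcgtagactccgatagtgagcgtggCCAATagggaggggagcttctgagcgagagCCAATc
Phgdh: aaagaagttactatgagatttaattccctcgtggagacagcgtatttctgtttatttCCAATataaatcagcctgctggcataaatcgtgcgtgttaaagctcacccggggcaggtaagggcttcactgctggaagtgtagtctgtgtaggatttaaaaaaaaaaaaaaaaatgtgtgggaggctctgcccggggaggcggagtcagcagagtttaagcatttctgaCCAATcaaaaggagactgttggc
Mthfd2: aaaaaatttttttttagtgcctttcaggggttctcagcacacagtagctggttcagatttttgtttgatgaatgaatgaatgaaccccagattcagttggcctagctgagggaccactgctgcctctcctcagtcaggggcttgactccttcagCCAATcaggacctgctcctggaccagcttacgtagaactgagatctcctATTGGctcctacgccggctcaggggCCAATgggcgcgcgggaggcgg

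Of the 7 members with an entry (Psat1, Phgdh, Shmt1, Shmt2, Mthfd2, Slc3a2 and Odc1), CCAAT was found on either strand in Psat1, Phgdh, Shmt1 and Mthfd2, and in 33.8% of 32851 windows of this length. Each member was searched in a single window, whereas the shares are over all windows. The windows of Psat1, Shmt1, Mthfd2 and Slc3a2 lie inside the gene spans given above, and other starts of the members were not searched. In Psat1 it began 36 and 6 bases before the start, in Phgdh 193 and 23, and in Mthfd2 96, 47 and 22. The E-box CACGTG, bound by Myc and its partners, was found in 0 of the 7 and 6.02% of windows. The ATF4 letters TGATGNAA were found in 0 of the 7 and 3.45% of windows, and the E2F letters TTTNNCGC in 0 and 4.28%. The GC box GGGCGG was found in Shmt1, Slc3a2 and Odc1 and in 32.7% of windows. Shmt2, which was also higher in cycling cells, held none of the letters searched for, so CCAAT was not common to all the serine and folate genes. A match is a description of letters and does not show binding, and the CCAAT, E2F and GC letters were chosen after the expression values were seen.

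The KO ratios rested on few cells. Of the 147 cycling KO cells, 28 carried Psat1, 46 Phgdh, 30 Mthfd2, 27 Srm and 18 Slc7a5. With the 10 cells richest in each gene left out of each class, a larger part of 147 than of 2502 cells, Psat1 still stood at 1.24, Phgdh at 0.75 and Mthfd2 at 0.63 in the KO library, while Slc7a5 stood at -0.11 and Shmt1 at -0.12. T cell markers summed to 129 CPM in cycling and 88.2 CPM in non-cycling KO cells and to 193 and 149 CPM in WT cells, with 5 of 8 present in cycling cells and Cd4, Cd8a and Cd8b1 at 0. Markers of B and antigen-presenting cells summed to 388 against 130 CPM in the KO and 168 against 144 CPM in the WT library, with Cd79a and Ms4a1 at 0 in cycling cells. Basophil and mast cell markers summed to 16.8 against 1.5 CPM in KO cells, from 18 and 17 UMIs, and to 28.9 against 16.0 CPM in WT cells. Erythroid markers summed to 309 against 290 CPM in KO and to 112 against 1018 CPM in WT cells. Inside the NK gate the cycling ratio was 1.64 in KO and 1.08 in WT cells for Psat1, and 1.18 and 1.42 for Phgdh. The part of the other markers in these ratios was not tested.

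Levels followed the number of S and G2M genes detected, mostly from 3 genes upward. Psat1 stood at 11.8, 7.17 and 11.2 CPM in KO cells with 0, 1 and 2 such genes, at 25.4 CPM with 3 to 5 and at 83.7 CPM with 6 or more. In WT cells the levels were 19.8, 17.2, 17.2, 41.6 and 72.5 CPM in the same order. Phgdh went from 35.3 to 171 CPM between the end classes in the KO and from 46.4 to 190 CPM in the WT library. With 6 or more against 0 such genes, 7 KO members were at least 1.5-fold higher, where 17.0% of 3408 genes were, and Slc3a2 was as much lower, where 25.1% were. In WT cells 8 members were higher, Odc1 among them, where 16.0% of 4552 genes were, and 0 were lower, where 11.5% were. Cells with 6 or more genes numbered 22 KO and 104 WT cells. In them only Srm had Poisson intervals apart between libraries, at 108 CPM in KO and 59.3 CPM in WT cells. Its intervals, 73.4 to 153 from 31 KO UMIs and 47.3 to 73.3, were barely apart. The direction was opposite to that of Srm over all kept cells. With 0 genes detected the intervals of Psat1, Phgdh, Srm, Slc3a2, Odc1 and Myc lay apart.

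**Figure D3:**
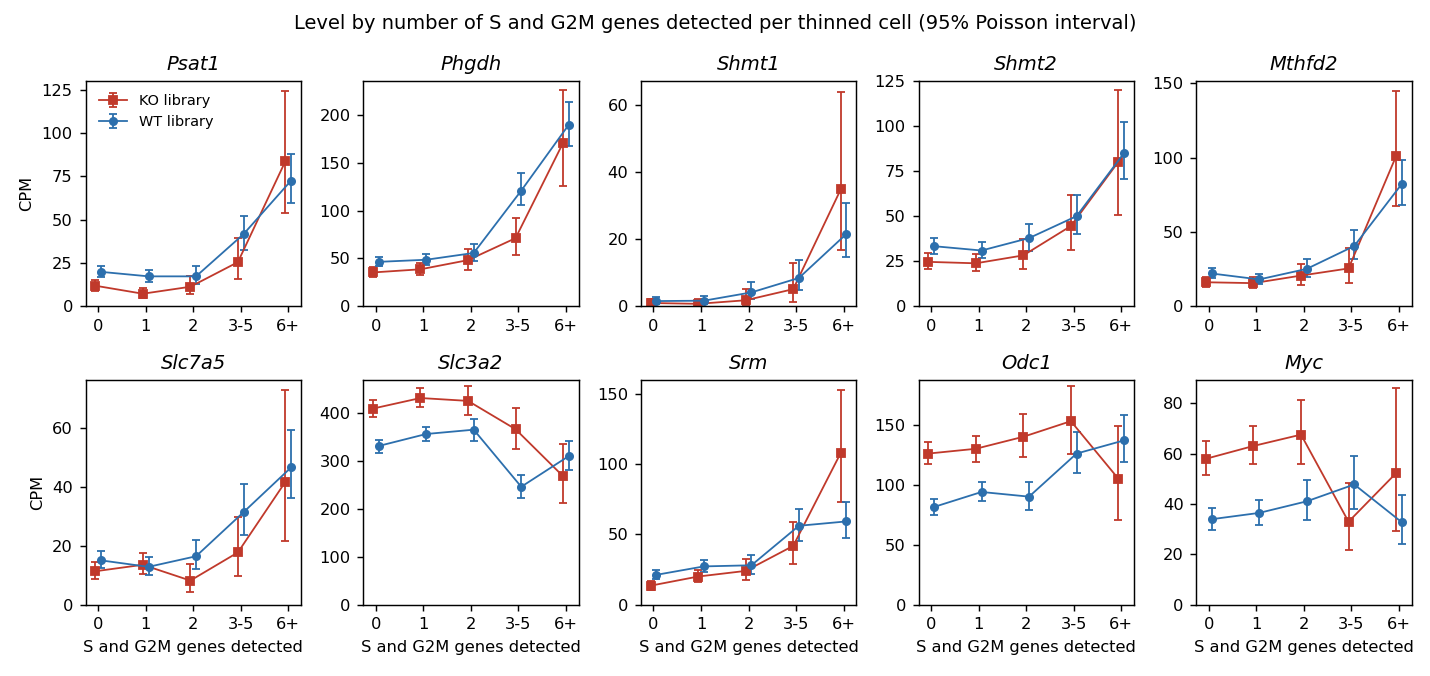
CPM of each gene by the number of S and G2M genes detected in the thinned cell, KO library (squares) and WT library (circles), with 95% Poisson intervals; each panel has its own axis from 0. Serine and folate genes, Slc7a5 and Srm are highest at the right, where Psat1 reaches 83.7 and 72.5 CPM, whereas Slc3a2 does not.

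Among cycling WT cells, 253 had more S than G2M genes detected and 62 had more G2M genes. Shmt1 stood at 17.3 CPM (Poisson interval 12.4 to 23.6) in the S-led and 4.03 CPM (0.832 to 11.8) in the G2M-led cells. Srm leaned the same way, at 66.7 and 36.3 CPM. Its intervals lay apart as well (56.6 to 78.1 and 23.9 to 52.8). Mthfd2 stood at 52.4 and 78.0 CPM and Phgdh at 148 and 169 CPM, with intervals that overlapped. The KO library had 14 G2M-led cells, too few for such a reading.

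Within each class the library ratios were uneven. In non-cycling cells Psat1 stood at 9.91 CPM in KO and 18.3 CPM in WT cells, a log2 ratio of -0.83 (-1.22 to -0.57), and Shmt1, with 11 and 32 UMIs, at -0.60. They were the 2 members at least 1.5-fold lower there, where 1.56% of 7681 genes were. Phgdh had -0.33, Shmt2 -0.40, Mthfd2 -0.32 and Srm -0.46 with intervals below 0, and Slc7a5 had -0.28 with an interval to 0.015. Myc had 0.75 (0.60 to 0.93), the only member at least 1.5-fold higher, where 5.04% of genes were; Odc1 had 0.56 (0.46 to 0.67) and Slc3a2 0.28 (0.22 to 0.34).

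In cycling cells most library ratios were within counting error. Phgdh stood at 97.8 CPM in KO and 152 CPM in WT cells, -0.63 (-0.96 to -0.33), and Slc7a5 at 24.2 and 38.3 CPM, -0.64 (-1.33 to -0.041); these were the 2 members at least 1.5-fold lower, where 3.88% of 2761 genes were. None was as much higher, where 5.69% of genes were. Slc3a2 had 0.31 (0.13 to 0.49), and the intervals of the other 7 crossed 0. With the cut at 5 genes, 29 KO and 121 WT cells, Phgdh had -0.23, Slc7a5 -0.12 and Slc3a2 -0.24, so these ratios depend on the cut.

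The libraries differed in the summed level of early-response genes, which cells switch on soon after stimulation. A list of 19, with Nr4a1, Junb and Nfkbiz and without Myc, had a median of 33 UMIs per thinned non-cycling KO cell and 14 per WT cell. Non-cycling cells of both libraries together were split into a low, a middle and a high class of this sum, with up to 12, up to 28 and more UMIs, so as to hold like numbers of cells. The low class held 556 KO and 1350 WT cells, the middle 552 and 1354, and the high 1394 and 428. Median depth over the full counts was 4142, 4318 and 3900 UMIs in these KO classes and 4906, 4278 and 3890 in the WT classes; its part in what follows was not tested.

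Myc, Odc1 and Slc3a2 were higher with each class in both libraries. Myc stood at 32.5, 48.8 and 80.2 CPM in KO cells and at 28.6, 38.7 and 59.4 CPM in WT cells. The log2 ratio of high over low was 1.28 (0.97 to 1.65) and 1.03 (0.70 to 1.39). Odc1 went from 66.8 to 151 CPM in KO and from 70.3 to 113 CPM in WT cells, and Slc3a2 from 292 to 462 and from 305 to 419 CPM. Myc and Odc1 were the members at least 1.5-fold higher in both libraries, joined in the KO library by Slc3a2 and Slc7a5, where 8.76% of KO and 6.18% of WT genes were.

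The serine and polyamine genes of the cycling pattern were not higher with the class. In WT cells Psat1 stood at 21.3, 16.8 and 11.2 CPM, Phgdh at 56.9, 44.5 and 29.1 CPM and Srm at 30.7, 20.7 and 13.4 CPM from the low to the high class. The WT ratio of high over low was -0.87 for Psat1, -0.94 for Phgdh and -1.13 for Srm, and 4 members, Shmt1 included with 22 UMIs in the low and 1 in the high class, were at least 1.5-fold lower, where 2.88% of genes were. In KO cells Psat1 stood at 10.1, 10.1 and 9.77 CPM and Phgdh at 37.3, 44.7 and 36.2 CPM, with ratios of -0.041 and -0.043, and Srm had -0.49 (-1.0 to -0.023). No KO member was 1.5-fold lower, where 3.69% of genes were. Whether the libraries differ in this was not tested.

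At like early-response levels the library ratios of Myc were smaller. They were 0.18 (-0.19 to 0.55), 0.33 (0.020 to 0.65) and 0.43 (0.13 to 0.75) in the low, middle and high class, against 0.75 over all non-cycling cells. Odc1 had -0.073, 0.52 and 0.42, and Slc3a2 had -0.061, 0.28 and 0.14. Psat1 had -1.01, -0.69 and -0.18, the last with an interval from -0.95 to 0.61. Phgdh had -0.60, 0.0064 and 0.30, Srm -0.44, -0.23 and 0.21, and Slc7a5 -0.83, -1.30 and 0.22. Shmt2 had -0.26, -0.19 and -0.24, and Mthfd2 had -0.32, -0.43 and 0.0032. In the high class the intervals of all of these crossed 0. The median over the 10 genes was -0.38, -0.090 and 0.21 from the low to the high class. The high class was not alike in both, since its median early-response sum was 50 UMIs in KO and 36 in WT cells. Lower by 1.5-fold or more in KO cells were 4 members in the low class (Psat1, Phgdh, Slc7a5 and Shmt1, the last with 2 UMIs in KO cells) and 2 in the middle (Psat1 and Slc7a5), where 1.77% and 1.38% of genes were, and 0 in the high, where 1.30% were. None was as much higher in any class, where 2.82%, 3.03% and 4.99% of genes were.

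**Figure D4:**
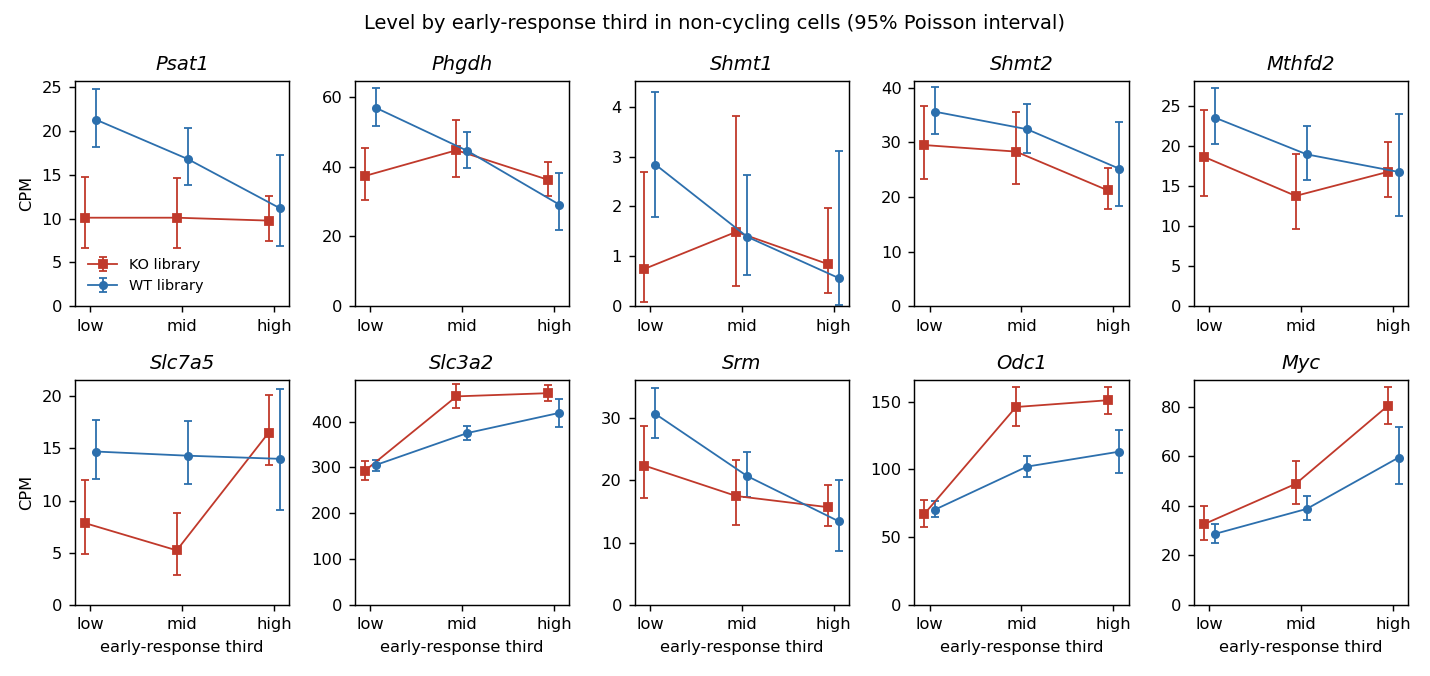
CPM of each gene in non-cycling cells by low, middle and high class of the early-response UMI sum, KO library (squares) and WT library (circles), with 95% Poisson intervals; each panel has its own axis from 0. Myc goes from 32.5 to 80.2 CPM in KO and from 28.6 to 59.4 CPM in WT cells, and Phgdh from 56.9 down to 29.1 CPM in WT cells.

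WT cells that carried Slc7a5 were richer in the other 9 members, and KO cells in 3 of them. In thinned non-cycling WT cells, the 84 with a Slc7a5 UMI held Srm at 95.2 CPM against 18.9 CPM in the 3048 without, a log2 ratio of 2.27 (1.58 to 3.01). Shmt2 stood at 100 against 29.1 CPM, Phgdh at 124 against 38.8 CPM, Odc1 at 171 against 75.1 CPM and Slc3a2 at 495 against 357 CPM. In KO cells, 64 with and 2438 without, Srm stood at 50 against 14.6 CPM, a ratio of 1.71 (0.52 to 2.82), Mthfd2 at 43.8 against 14.1 CPM and Phgdh at 81.2 against 35.1 CPM. Odc1 leaned the other way in KO cells, at 93.8 against 128 CPM, and its interval and those of Psat1, Shmt1, Shmt2, Slc3a2 and Myc crossed 0.

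A split by Myc gave little. In 273 KO cells with a Myc UMI and 2229 without, the intervals of all 9 other genes crossed 0, Odc1 standing at 132 against 127 CPM and Slc3a2 at 423 against 435 CPM. In 227 WT cells with and 2905 without, Slc7a5 stood at 24.7 against 11.3 CPM, a ratio of 1.06 (0.19 to 1.96), Psat1 at 30.0 against 16.1 CPM, 0.86 (0.067 to 1.64), and the other 7 intervals crossed 0. An interval across 0 does not show that levels were alike.

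Other genes of the same pathways were counted where they had at least 50 UMIs. At that floor 6.49% of 10479 genes were at least 1.5-fold higher and 3.86% lower in KO cells. In cycling over non-cycling cells 10.6% were higher and 11.1% lower in the KO library, and 12.2% and 7.84% in the WT library. Of 19 serine and folate genes 0 were 1.5-fold higher and 2 lower in KO cells, with the median log2 ratio of -0.26. Tyms, which makes thymidylate from folate, stood at 16.4 and 30.8 CPM, and Gart, of purine synthesis, at 16.6 and 25.9 CPM. Within non-cycling cells 0 of 19 were as much higher or lower, where 5.99% and 2.55% of genes were. The median there was -0.056, against 0.050 over all genes at that floor. Within cycling cells 0 of 13 were higher and 1 lower, where 7.83% and 7.30% were, with a median of -0.18. The library ratio of Tyms was -0.45 in each class. In cycling over non-cycling cells 11 of 17 KO and 10 of 18 WT genes were at least 1.5-fold higher and 1 in each lower, Mtrr in KO and Mthfs in WT cells. Tyms, also known as an S-phase gene, had a ratio of 2.77 in each library.

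Of 13 other amino acid carriers, 4 were at least 1.5-fold higher in the KO library and 0 lower, with a median of 0.51. Slc38a2, a carrier of small neutral amino acids, stood at 291 CPM in KO and 163 CPM in WT cells, a log2 ratio of 0.84, and was lower in cycling cells, at -0.43 and -0.22. Slc7a11, the cystine carrier, had 61 and 40 UMIs and Slc7a2 had 64 and 45, at 0.88 and 0.82. The fourth was Slc6a9, a glycine carrier, at 11.3 and 6.83 CPM. In cycling cells 1 of 11 KO carriers (Slc7a6) and 1 of 9 WT carriers (Slc7a1) were as much higher, and Slc36a1 and Slc43a2 were lower in each.

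The ATF4 and amino acid response list, to which Psat1, Phgdh and Mthfd2 are known to be linked, had 1 of 26 genes at least 1.5-fold higher and 1 lower in KO cells, near the shares of all genes, with a median of -0.10. Within cycling cells 2 of 22 were higher (Cebpb and Iars) and 5 lower (Asns, Ddit4, Eif4ebp1, Sars and Tars), where 7.83% and 7.30% of genes were. Over all kept cells the lower one was Asns, encoding asparagine synthetase, with 23 UMIs in KO and 149 in WT cells, or 1.74 and 7.66 CPM, a ratio of -1.66. In non-cycling cells Asns had 10 and 76 UMIs, a ratio of -1.61, and over non-cycling cells it was higher in cycling cells by 2.69 in KO cells, from 12 and 10 UMIs, and by 2.05 in WT cells. Of the list, 2 of 24 KO and 7 of 26 WT genes were at least 1.5-fold higher in cycling cells, the KO share near that of all genes; Aars, alanyl-tRNA synthetase, was among them in each, at 0.61 and 0.61. The higher one was Cebpb, a transcription factor gene, at 223 and 126 CPM. Gars, glycyl-tRNA synthetase, stood at 44.3 and 59.5 CPM.

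Polyamine genes outside the 10 had 3 of 14 at least 1.5-fold higher in the KO library, 0 lower and a median of -0.0051. Amd1, encoding the decarboxylase that supplies Srm, stood at 81.7 and 44.8 CPM, and Smox, spermine oxidase, at 32.7 and 17.8 CPM. Amd2, close in sequence to Amd1, had 85 and 67 UMIs, and reads of this pair may be split unevenly. In cycling over non-cycling KO cells 2 of 13 were at least 1.5-fold higher and 1 lower, where 10.6% and 11.1% of genes were. In WT cells 3 of 14 were higher and 2 lower, where 12.2% and 7.84% were. Mtap, which recycles the byproduct of spermidine synthesis, was higher in cycling cells, by 0.92 and 0.83. Sat1 was lower in them, at 174 against 287 CPM in KO and 180 against 293 CPM in WT cells. Smox was lower in cycling WT cells, at -0.89.

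Around Myc, 1 of 15 network genes was at least 1.5-fold lower and 1 higher in KO cells, near the 3.86% and 6.49% of all genes. The lower one was Mxd3, with 14 and 62 UMIs, or 1.06 and 3.19 CPM. Its WT UMIs lay mostly in cycling cells, 54 against 7 in non-cycling cells, and cycling cells were 9.56% of WT and 5.55% of KO cells. Within cycling cells Mxd3 had 7 UMIs in KO and 54 in WT cells, or 6.52 and 16.8 CPM, a log2 ratio of -1.24. The part of the cycling share in the library ratio was not tested. The higher one was Mxd1, a Myc antagonist, at 247 CPM in KO and 109 CPM in WT cells, a log2 ratio of 1.17, with 1.18 in cycling and 1.12 in non-cycling cells. Mxd4, another antagonist, stood at 76.3 and 69.8 CPM and was lower in cycling cells, by a ratio of -0.70 and -0.73. Of 32 Myc growth targets 0 were 1.5-fold higher and 1 lower, where 6.49% and 3.86% of all genes were, so these counts were near those shares. The median of the targets was -0.24, and Myc itself stood at 0.65. The lower one was Nop16, a ribosome assembly gene, at 11.6 and 18.2 CPM, followed by Ldha at 494 and 695 CPM and C1qbp at 53.4 and 75.2 CPM. Within non-cycling cells the median of the targets was -0.15, with Myc at 0.75. By low, middle and high early-response class the median was -0.14, -0.055 and -0.041, with Myc at 0.18, 0.33 and 0.43. In cycling over non-cycling cells 18 of 31 KO and 15 of 32 WT targets were at least 1.5-fold higher and 0 lower, with medians of 0.62 and 0.54. Pa2g4 had 1.02 and 1.10.

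Likeness of pattern was taken as Pearson's r of log2(CPM + 1) over 12 strata of library, cycling and early-response class, among genes with at least 1000 UMIs. The strata share their libraries and hold 35 to 1394 cells, so r is a description. Psat1 was most like Ybx3 (0.968), Hspd1 (0.962) and Atp5b (0.961). Phgdh was most like Cenpw (0.972), Anp32b and Dnajc9, and Mthfd2 like Nap1l1 (0.982), Fbl and Mcm7. Srm was most like Pebp1 (0.977), Nhp2 and Emc8, and Shmt2 like Nudc (0.956). Slc3a2 was most like Chd1 (0.963), Tgoln1 and Hes1, Myc like Rap1a (0.960), Arhgef3 and Ccng2, and Odc1 like Taf1d (0.920). Slc7a5 was most like the gene model Gm6563 (0.923), Usp14 and Ndufb6.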

How the data were processed

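The authors deposited raw UMI counts, 1 whole number for each gene in each cell, which sum to 13407906 over 3110 KO barcodes and 19553440 over 3574 WT barcodes. The submitters' processing notes list Cell Ranger 2.0.2, Seurat and mm10 and give none of them a task; annotation and cell calling are not stated. Doublets were not called or removed. The members and lists were chosen with earlier results of these data known.

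Counts were summed over the cells of a class and library and scaled to CPM, per 1000000 UMIs of that sum. Ratios are log2 with 1 CPM added; their exact conditional binomial intervals, at 95%, were taken without it and so lie further from 0 for sparse genes. Poisson intervals are exact. All cover counting error only. Cells were thinned without replacement (seed 7) only to call classes, for the splits by a UMI and for the share of cells with Slc7a5 or Slc3a2 at like depth. Pathway genes were named by size: with at least 100 UMIs, up to 3 of each list by library ratio and up to 2 by the cycling ratio. Slc6a9, Slc7a1, Slc7a6, Aars, Ddit4, Eif4ebp1, Iars, Sars, Tars, Sat1, Mxd3, Mtrr and Mthfs fall outside that rule and were named after their values were seen. Some genes that the rule or the marker lists hold are not reported here. Miz1 and the T cell genes Trac, Trbc1 and Trbc2 had no row of that name. In a simulation of the library comparison (8155 genes, of which 200 differed), intervals held the true value for 95.3% of genes that did not differ. It drew each UMI as a separate draw, as the intervals assume. It therefore checks the computation only, and says nothing about UMIs that gather in few cells or differences between animals. Positions are from GENCODE M21. Python 3.11.15, numpy 2.4.6, scipy 1.17.1, pandas 2.3.3 and matplotlib 3.10.9 were used.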

Additional observations from a re-analysis of the deposited data

Results flagged for a closer look

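Myc went opposite ways in the 2 libraries between cycling and non-cycling cells, with counting intervals that did not overlap. Its log2 ratio was -0.67 in KO and 0.18 in WT cells, and the WT interval crossed 0. In the same way, the KO over WT ratio of Myc was -0.10 in cycling and 0.75 in non-cycling cells. Neither difference was tested, since each genotype had 1 library. With the cycling cut at 5 genes, which leaves 29 KO and 121 WT cycling cells, the cycling ratios were -0.41 in KO and -0.19 in WT cells, and the KO over WT ratio in cycling cells was 0.45. With the cut at 2 genes the cycling ratios were -0.10 and 0.22, and the KO over WT ratio in cycling cells was 0.44. The opposite signs were thus not present at every cut.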

How the results depend on the processing

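No paired analysis was possible because each genotype had 1 library. In all kept cells, 1 member instead of 3 was lower in KO cells by 1.5-fold inside the NK gate, by the mean of per-cell CPM and with 5 CPM added. In non-cycling cells, 1 instead of 2 was as much lower with each of these, among members with at least 200 UMIs, with the cycling cut at 2 genes, without thinning, and without cells holding a Cd3d or Cd3e UMI or 10 or more erythroid UMIs; 2 instead of 1 were higher inside the NK gate, by per-cell CPM, without thinning and without those Cd3 or erythroid cells. In cycling cells, 1 instead of 2 was lower inside the NK gate, with 5 CPM added and among members with at least 200 UMIs, 4 were without the Cd3 or erythroid cells (median -0.50 against -0.20), 7 without the 10 richest cells (median -0.86), and 0 with the cut at 5 genes; 1 instead of 0 was higher by per-cell CPM and with the cut at 5.

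For cycling over non-cycling KO cells the median of 1.21 became 0.90 by per-cell CPM, 0.75 and 1.86 with cuts of 2 and 5 genes, 0.89 without thinning and 0.16 without the 10 richest cells. There 3 members were higher and 2 lower, and Shmt1 and Slc7a5 turned to -0.12 and -0.11. With at least 200 UMIs, 4 members were higher, by construction of fewer genes, and with the cut at 2 genes 0 were lower. The WT median of 1.27 became 0.97 without the 10 richest cells and 0.91 with a cut of 2. The causes of the other shifts were not tested. Leaving out the 19 barcodes found in both libraries kept each count of members. That alternative and the one on Cd3 or erythroid cells were chosen after seeing the data. Depth limits Shmt1 most, with 26 KO UMIs.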
